A study of Mus musculus with 66 samples.

Results

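The genes described here are 8 markers of the goblet cell: Muc2, Atoh1, Agr2, Fcgbp, Clca1, Tff3, Zg16 and Spink4. They were chosen by name, as the entries of the RNA table that carry one of these symbols, and 7 of the 8 were found, with 8 transcripts among the 9481 transcripts of the table. The authors had restricted this table to transcripts whose protein they had also quantified. RNA of Spink4 was not analysed here, and its locus is described from the chromatin data alone. The material was mouse small intestinal organoids, miniature epithelia grown from crypts that carried the Lgr5 GFPDTR/+ allele in every culture, a reporter and toxin receptor placed at the stem cell gene Lgr5. ENR organoids were grown in EGF (50 ng/mL), Noggin and R-Spondin-1, the conventional mixed culture. CV organoids received the same factors plus the GSK3 inhibitor CHIR99021 (3 µM) and the histone deacetylase inhibitor valproic acid (1 mM) for 5 days, which favours stem cells. EN organoids were kept without R-Spondin-1, an enhancer of Wnt signalling, for 2.5 days, which favours differentiation, mainly to enterocytes. No group was labelled as enriched for goblet cells. Each culture gave 4 RNA-seq libraries, 4 ATAC-seq libraries, which read open chromatin, and, as analysed here, 3 ChIPmentation libraries for each of the histone marks H3K27ac, H3K4me3 and H3K27me3 and 1 for the transcription factor Hnf4g.

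Goblet cells are secretory cells that cover the intestinal surface with mucus. Their fate is set by Atoh1, a basic helix-loop-helix factor that is switched on where Notch signalling is low and that all secretory lineages need, and their mature form is known by large granules of the gel-forming mucin Muc2. The other genes serve the making, packing and finish of that mucus: Agr2 is a disulfide isomerase of the endoplasmic reticulum needed for Muc2 folding, Fcgbp and Clca1 are secreted with the mucin and take part in the structure and processing of the mucus, Tff3 is a trefoil peptide of epithelial repair, Zg16 is a lectin that binds Gram-positive bacteria, and Spink4 is a small protein with a Kazal inhibitor domain.

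RefSeq start sites with sequence (build GRCm38.p6) were at hand for 4 of the 8 genes, and the 250 bases before each start are shown. Whether these bases bear on the changes in RNA was not tested. Capitals mark 7 short motifs, searched on both strands. They were the TATA box TATAAA, the E-box CAGCTG, a second E-box with the letters CAGATG, the HNF4 motif CAAAGNNCA, the forkhead (FOXA) motif TGTTTAC, the TCF/LEF motif CTTTGAT and the motif of GATA factors, AGATAA. The windows lie on the plus strand at chr7:141690090-141690339 (Muc2), chr6:64728875-64729124 (Atoh1), chr12:35992675-35992924 (Agr2) and chr7:28070986-28071235 (Fcgbp).
Muc2: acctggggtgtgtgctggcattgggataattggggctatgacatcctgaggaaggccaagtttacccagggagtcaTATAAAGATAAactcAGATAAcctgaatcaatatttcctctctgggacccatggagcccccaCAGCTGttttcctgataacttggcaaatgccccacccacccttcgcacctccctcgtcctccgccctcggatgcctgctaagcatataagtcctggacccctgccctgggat
Atoh1: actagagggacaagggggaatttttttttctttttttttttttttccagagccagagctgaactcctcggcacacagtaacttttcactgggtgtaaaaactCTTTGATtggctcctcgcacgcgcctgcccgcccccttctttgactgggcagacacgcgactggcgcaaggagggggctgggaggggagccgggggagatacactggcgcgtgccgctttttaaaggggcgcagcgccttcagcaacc
Agr2: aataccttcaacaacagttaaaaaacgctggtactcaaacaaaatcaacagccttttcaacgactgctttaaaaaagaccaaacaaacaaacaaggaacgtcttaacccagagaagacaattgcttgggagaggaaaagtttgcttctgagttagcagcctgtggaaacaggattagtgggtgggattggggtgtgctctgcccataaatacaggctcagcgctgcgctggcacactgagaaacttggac
Fcgbp: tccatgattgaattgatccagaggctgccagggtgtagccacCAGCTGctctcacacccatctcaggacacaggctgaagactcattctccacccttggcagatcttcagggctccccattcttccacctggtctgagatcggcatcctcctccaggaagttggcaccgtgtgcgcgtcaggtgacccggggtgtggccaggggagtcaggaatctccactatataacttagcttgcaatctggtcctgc
The Muc2 window held TATAAA, with its first base at -174 from the start. This TATAAA overlapped by 1 base the first of 2 AGATAA, and the window also held CAGCTG. The Atoh1 window held CTTTGAT, the Fcgbp window held CAGCTG and the Agr2 window held none of the 7. Of all 32851 promoters in the RefSeq table, 12.4% held TATAAA within the same 250 bases, 13% CAGCTG, 9.99% AGATAA and 3.21% CTTTGAT. A match describes letters and is not a binding site.

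The second set of sequences is of 2 regions of the chromatin data (build mm9) that later values turn on. They are the region behind Agr2 and the region before Spink4 in which ATAC differed most between EN and CV at each gene. They lie at chr12:36731285-36731584 (plus strand, downstream of the Agr2 gene and outside its exons) and chr4:40863940-40864176 (plus strand, upstream of Spink4).
Agr2 region: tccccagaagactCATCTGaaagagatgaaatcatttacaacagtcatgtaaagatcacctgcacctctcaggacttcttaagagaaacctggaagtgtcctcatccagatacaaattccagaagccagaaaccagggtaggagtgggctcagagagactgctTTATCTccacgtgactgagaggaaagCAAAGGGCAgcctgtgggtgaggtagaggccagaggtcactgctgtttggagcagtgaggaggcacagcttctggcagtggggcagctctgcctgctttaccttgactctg
Spink4 region: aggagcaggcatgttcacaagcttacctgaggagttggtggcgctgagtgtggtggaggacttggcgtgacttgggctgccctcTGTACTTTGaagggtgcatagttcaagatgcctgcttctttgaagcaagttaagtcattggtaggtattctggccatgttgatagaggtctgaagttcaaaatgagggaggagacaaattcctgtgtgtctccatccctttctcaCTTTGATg
The Agr2 and Spink4 regions each held CAAAGNNCA once, a motif found in 14.0% and 12.1% of windows of the same length centred on all regions. The Agr2 region also held CAGATG (20.1% of windows) and AGATAA (19.0%), and the Spink4 region also CTTTGAT (4.56%).

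The RNA libraries held 5630977 to 8859757 counts without spike-ins, and the lowest count of a tested goblet gene in any library was 9 (Clca1 in CV). Lgr5, the stem cell marker, had 90.1 ± 3.62 CPM (counts-per-million, normalised by TMM, with SD, n = 4) in CV, 129.2 ± 4.88 in ENR and 1.81 ± 0.778 in EN. Changes between cultures are given as log2 fold changes with their standard error (SE) from edgeR's quasi-likelihood test over 9288 transcripts, called at a Benjamini-Hochberg adjusted p under 0.01. Nothing in the sources says that the libraries of a culture came from separate animals, so p-values measure the spread between these libraries. The 3 comparisons share their cultures, and differences in size between the steps were not tested. In bulk RNA, fewer cells of a type and less RNA per cell cannot be told apart.

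After TMM normalisation all 7 tested goblet genes rose from CV to ENR and again from ENR to EN. In each step the 4 libraries of the higher culture lay above all 4 of the lower. With spike-in scaling the second step of Agr2 and Atoh1 was near 0 and not called. In the table at large, 35.2% of transcripts were called higher in EN than in CV, 35.5% higher in EN than in ENR and 29.8% higher in ENR than in CV, and 34.9%, 36.3% and 32.6% had higher libraries that did not overlap. The median log2 fold change of the 7 was 3.42 for EN against CV, 2.45 for EN against ENR and 2.22 for ENR against CV, beside -0.08, -0.01 and 0.01 over all transcripts. The log2 fold changes differed widely, with Clca1 (8.56), Zg16 (8.505) and Muc2 (7.92) far above Fcgbp (3.42), Agr2 (2.68), Tff3 (1.99) and Atoh1 (1.97) for EN against CV.

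**Figure D1:**
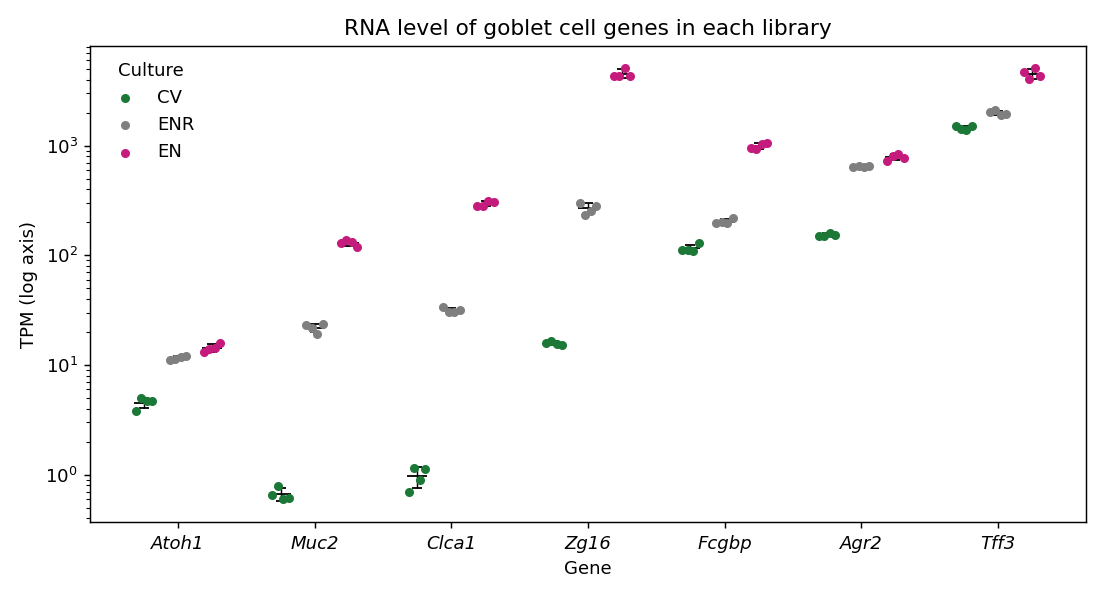
Level (TPM, log axis) of the 7 goblet cell genes in each of 12 libraries, with bars for the mean and SD of 4 libraries per culture. Muc2 goes from 0.663 TPM in CV to 129.9 in EN, and Tff3 is the highest gene in CV and ENR.

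Atoh1, the fate factor, was the lowest of the genes in ENR and EN. In CV the 4 libraries held 3.83, 4.97, 4.70 and 4.66 TPM (transcripts-per-million, a level per length), in ENR 10.98, 11.2, 11.9 and 11.9, and in EN 13.2, 13.9, 14.2 and 15.97. The ENR and EN libraries lay close, without overlap. The log2 fold change was 1.49 ± 0.11 (SE) from CV to ENR (adjusted p = 1.03e-08) and 0.48 ± 0.10 from ENR to EN (adjusted p = 0.000313).

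Muc2, the mucin itself, had 0.650, 0.784, 0.603 and 0.612 TPM in CV, from 21 to 27 counts per library. ENR libraries held 22.9, 21.5, 19.3 and 23.4 TPM and EN libraries 129.8, 136.5, 133.4 and 120.0 TPM. The cultures did not overlap at either step. The log2 fold change was 5.19 ± 0.11 from CV to ENR (adjusted p = 2.29e-14) and 2.73 ± 0.06 from ENR to EN (adjusted p = 2.65e-15).

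Clca1, a secreted metalloprotease of mucus, followed Muc2 most closely of the other 6 genes. Its main transcript, NM_017474.2, had 9, 15, 12 and 16 counts in CV, 361 to 515 in ENR and 2915 to 4637 in EN. This is a log2 fold change of 5.17 ± 0.12 from CV to ENR and 3.38 ± 0.06 from ENR to EN. The second Clca1 transcript, XM_006501444.1, had an estimated 11.7, 10.7 and 20.1 counts in EN replicates 1, 3 and 4 and was listed at 0 in the other 9 libraries, so that it did not enter the test. Across the 12 libraries the log2 CPM of Clca1 and Muc2 correlated with r = 0.997 (Pearson, a description over libraries that share 3 cultures).

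Zg16, the lectin, showed the largest change of the group between ENR and EN, with rank 8 among the 9288 transcripts. Its level was 15.9, 16.7, 15.4 and 15.1 TPM in CV and 300.4, 232.1, 252.5 and 284.2 TPM in ENR. In EN it was 4357, 4329, 5154 and 4342 TPM, a range that overlaps that of Tff3. The log2 fold change was 4.24 ± 0.13 from CV to ENR and 4.26 ± 0.08 from ENR to EN (adjusted p = 8.65e-16), beside 5.19 and 2.73 for Muc2. In EN against CV, Clca1, Zg16 and Muc2 held ranks 12, 13 and 16 of all transcripts by fold change.

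Fcgbp, a large mucus protein, was present in all cultures. CV libraries held 111.2, 110.9, 110.3 and 130.2 TPM, ENR libraries 195.5, 201.0, 197.3 and 217.8, and EN libraries 955, 939, 1026 and 1060. The log2 fold change was 0.97 ± 0.06 from CV to ENR (adjusted p = 1.29e-09) and 2.45 ± 0.06 from ENR to EN (adjusted p = 8.61e-15). The estimated counts of Fcgbp were not whole numbers, so reads shared with a near-identical sequence may have been divided. Its neighbour and relative 9530053A07Rik had 11.3 to 147.3 counts per library, against at least 4072 for Fcgbp.

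Agr2, the isomerase, held 149.8, 150.6, 160.9 and 153.8 TPM in CV and 638.2, 648.5, 636.2 and 645.5 in ENR. In EN it held 724.2, 806.2, 844.6 and 764.7 TPM, only slightly above ENR and more spread. The log2 fold change was 2.22 ± 0.06 from CV to ENR and 0.47 ± 0.05 from ENR to EN (adjusted p = 3.89e-07).

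Tff3, the trefoil peptide, had the smallest rise from CV to ENR and the highest level of the group. It held 1501, 1431, 1398 and 1506 TPM in CV, 2014, 2119, 1924 and 1944 in ENR, and 4741, 4037, 5103 and 4306 in EN. The rise on the log2 scale was 0.60 ± 0.06 from CV to ENR and 1.39 ± 0.06 from ENR to EN. On the authors' mRNA copy numbers the first step was 0.77 and missed the threshold (adjusted p = 0.123).

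The scaling of the libraries changed 2 of the calls for EN against ENR. With libraries scaled to the spike-in RNA instead of TMM, the median over all transcripts moved to -0.52 for EN against ENR, and transcripts called higher and lower went from 3301 and 3455 to 1094 and 4275. On that scale the log2 fold change of Agr2 between ENR and EN was -0.063 (adjusted p = 0.754) and that of Atoh1 -0.038 (adjusted p = 0.888), while the other 5 genes stayed called and higher. With library size alone, an alternative added after seeing the data, Agr2 was at 0.10 (adjusted p = 0.0609) and Atoh1 at 0.11 (adjusted p = 0.295). Relative to the median of all transcripts, the values were 0.46 for Agr2 and 0.48 for Atoh1 with spike-in scaling, against 0.48 and 0.49 after TMM. They are close by construction, since a scaling factor moves all transcripts of a library alike. In the authors' mRNA copy numbers, which they had also set by spike-ins, the same difference was 1.38 for Agr2 and 1.49 for Atoh1, with a median over all transcripts of 0.88. Copies of Agr2 differed within a culture more than its TPM did, with 311.4 to 886.9 in ENR and 1240 to 1758 in EN. Within EN the spike-in share of the counts ran from 0.848% (replicate 1) to 1.36% (replicate 2). Whether Agr2 and Atoh1 were called higher in EN than in ENR thus depended on the scale, and a fall was not shown on any scale. For EN against CV all 7 genes were higher on every scale tried. The split of calls over all transcripts for that comparison was 3267 higher and 3829 lower after TMM and 1473 and 4292 after spike-in scaling.

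**Figure D2:**
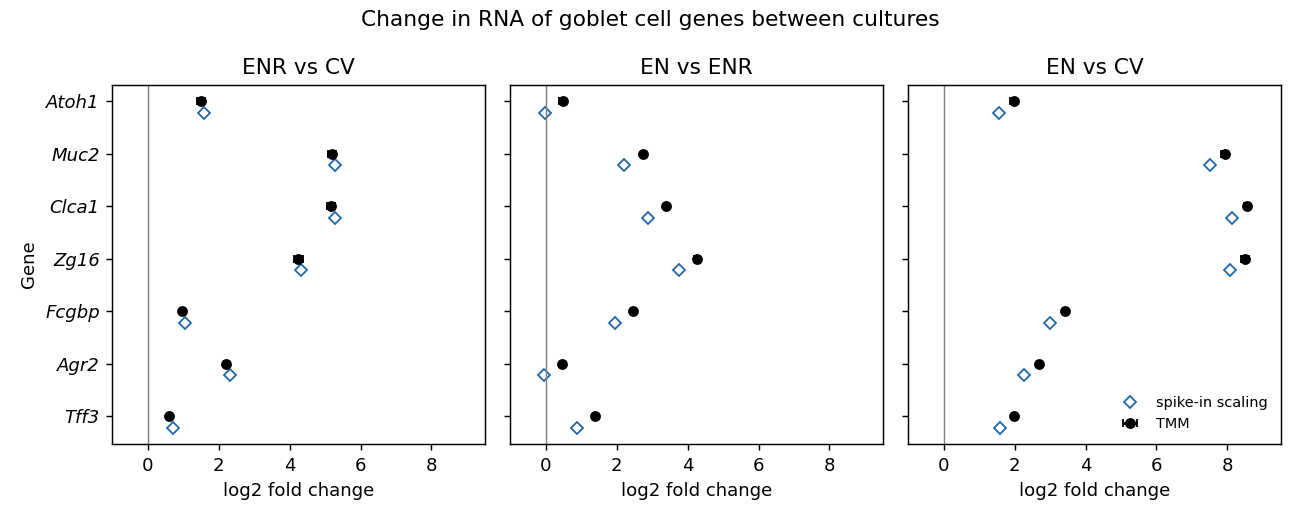
Log2 fold change of the 7 goblet cell genes for each comparison of cultures, after TMM normalisation (black circles, bars are SE, n = 4 libraries per culture) and after spike-in scaling (blue diamonds). For EN against ENR, the diamonds of Agr2 and Atoh1 lie at -0.063 and -0.038.

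Shares within a library do not depend on the scaling between libraries. Summed over the 7 genes, the TPM was 1751 ± 56.3 (SD, n = 4) in CV, 3177 ± 82.5 in ENR and 11312 ± 891 in EN, or 0.179%, 0.324% and 1.16% of the TPM of all transcripts. In CV, Tff3 made up 83.4% ± 0.625 of the pool, Agr2 8.79% ± 0.506 and Fcgbp 6.60% ± 0.408. In ENR, Agr2 made up 20.2% ± 0.429 and Zg16 8.42% ± 0.990, beside 62.9% ± 1.43 for Tff3. In EN, Tff3 (40.2% ± 1.72) and Zg16 (40.2% ± 1.02) had shares that overlapped, and Agr2 made up 6.96% ± 0.510. Muc2 stayed a small share by transcript number, at 0.0379% ± 0.00531, 0.685% ± 0.0514 and 1.15% ± 0.103.

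**Figure D3:**
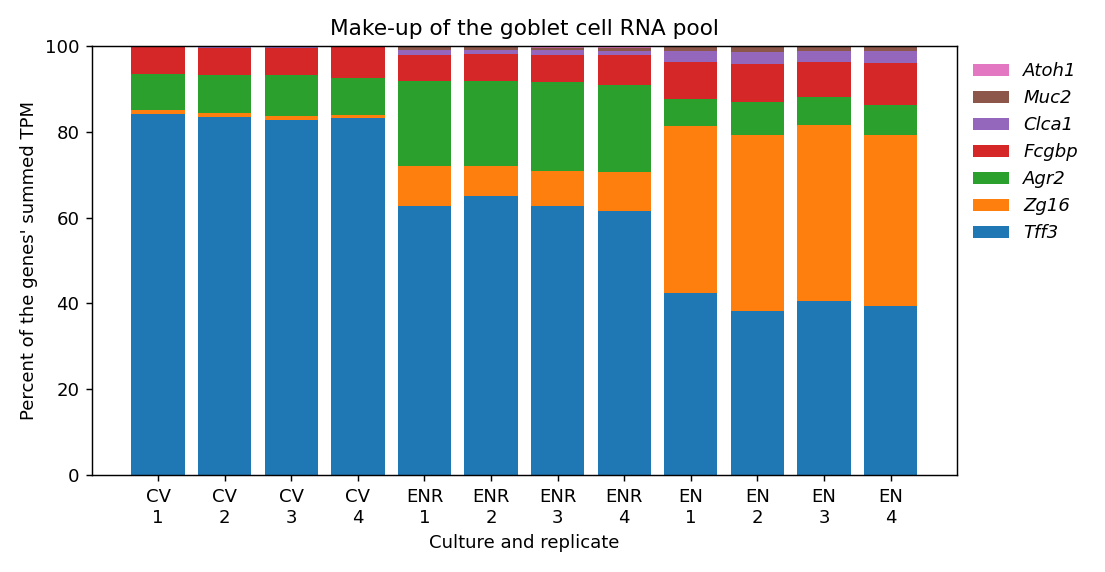
Percent of the summed TPM of the 7 goblet cell genes that each gene makes up, for 12 libraries. Zg16 grows from 0.901% in CV to 40.2% in EN, while Tff3 shrinks from 83.4% to 40.2%.

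The order of levels changed with it. In CV it ran Tff3, Agr2, Fcgbp, Zg16, Atoh1, Clca1 and Muc2, where only the ranges of Clca1 (0.693 to 1.14 TPM) and Muc2 (0.603 to 0.784 TPM) overlapped. In ENR it ran Tff3, Agr2, Zg16, Fcgbp, Clca1, Muc2 and Atoh1 without overlap of neighbours. In EN, Tff3 and Zg16 overlapped at the top, followed by Fcgbp, Agr2, Clca1, Muc2 and Atoh1.

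Within one library, the ratio of an effector to Agr2 needs no scaling either. There were 0.0955 to 0.111 molecules of Zg16 per Agr2 in CV, 0.358 to 0.471 in ENR and 5.37 to 6.10 in EN. The ratio of Muc2 to Agr2 rose in the same order, from 0.00375 to 0.00521, 0.0303 to 0.0363 and 0.157 to 0.179. That of Clca1 to Agr2 rose as well (0.00463 to 0.00756, 0.0467 to 0.0528 and 0.351 to 0.402). Fcgbp and Tff3 went down against Agr2 in the first step and up in the second. Fcgbp per Agr2 was 0.685 to 0.846, 0.306 to 0.337 and 1.16 to 1.39. Tff3 per Agr2 was 8.69 to 10.0, 3.01 to 3.27 and 5.01 to 6.55, so lower in EN than in CV. The ratio of Atoh1 to Agr2 was 0.0256 to 0.0330 in CV, 0.0172 to 0.0187 in ENR and 0.0168 to 0.0209 in EN, so that ENR and EN overlapped. Clca1 per Muc2 overlapped between CV (1.07 to 1.82) and ENR (1.37 to 1.57) and was above both in EN (2.07 to 2.56).

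Among 11 of 20 listed regulators of secretory cells found in the table, 4 rose and 6 fell in EN against CV (2 and 6 with spike-in scaling), and 3 rose and 6 fell in EN against ENR (0 and 7 with spike-in scaling). On the authors' mRNA copy numbers limma called 5 higher and 1 lower, and 7 and 1. Over all 9288 transcripts copy numbers gave 4418 higher and 1258 lower, and 5497 and 789. TMM gave 3267 and 3829, and 3301 and 3455, and spike-in scaling 1473 and 4292, and 1094 and 4275. The list thus had no single direction across scales, and the calls over all transcripts moved with the scale as well. After TMM the medians of the list were -0.13 and -0.22, against -0.08 and -0.01 over all transcripts. Spdef and Gfi1, the best known goblet and secretory factors below Atoh1, were not analysed here. The largest change was in Notch2, a Notch receptor, from 30.9 ± 3.86 CPM (SD, n = 4) in CV to 4.04 ± 1.01 in EN. Foxa2, a forkhead factor, went from 11.7 ± 0.540 to 4.49 ± 0.197 CPM. Klf4, a zinc finger factor of goblet differentiation, went from 8.65 ± 1.32 to 24.5 ± 2.38 CPM, and Gata6 from 51.8 ± 1.80 to 102.3 ± 7.65. The Notch ligand Dll1, which marks early secretory cells, was highest in ENR (50.2 CPM, against 25.4 in CV and 41.5 in EN).

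Of 25 other goblet cell genes tested, from 32 listed, 17 rose and 5 fell in EN against CV, with a median log2 fold change of 0.93. In EN against ENR 17 rose and 4 fell, with a median of 0.92. With spike-in scaling the counts were 13 and 5, and 11 and 6, with medians of 0.52 and 0.41. Over all transcripts the medians were -0.08 and -0.01 after TMM and -0.49 and -0.52 with spike-in scaling. Of all 9288 transcripts 35.2% and 35.5% rose after TMM, and 1473 and 1094 rose with spike-in scaling. The largest rises were in Capn9, Bcas1, Rep15 and Reg4. The authors used Reg4 as a marker of enteroendocrine cells. Which cell type the rise of Reg4 came from was not tested. Rep15, a Rab15 partner, had 1.15 ± 0.307 CPM in CV, 14.7 ± 0.945 in ENR and 51.5 ± 6.21 in EN, and the lectin Reg4 had 17.9 ± 4.66, 199.4 ± 5.50 and 666 ± 22.3. Bcas1 had 0.234 ± 0.296, 6.29 ± 1.84 and 26.4 ± 2.01 CPM, and the calpain Capn9 had at most 2 counts per library in CV and 14.5 ± 1.37 CPM in EN. Not all of the list moved this way. Ang4, an antimicrobial ribonuclease that Paneth cells also make, went from 47.0 CPM in CV and 59.5 in ENR to 9.98 in EN, and Pdia6, a disulfide isomerase, from 388.2 to 310.0 to 166.1.

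Enzymes that build mucin O-glycans were tested in 24 transcripts, of which 14 rose and 6 fell in EN against CV and 16 rose and 4 fell in EN against ENR. With spike-in scaling the counts were 7 and 8, and 4 and 7, so the balance of calls changed with the scale. Over all 9288 transcripts it was 1473 higher and 4292 lower, and 1094 and 4275, against 3267 and 3829, and 3301 and 3455, after TMM. The list medians were 0.46 and 0.55 after TMM and 0.04 and 0.03 with spike-in scaling. Over all transcripts the medians were -0.08 and -0.01, and -0.49 and -0.52. Chst4, a sulfotransferase, rose from 11.2 ± 0.827 CPM in CV to 109.6 ± 5.38 in EN, Gcnt4 from 48.6 ± 4.04 to 330.0 ± 16.4 and B3gnt7 from 10.1 ± 1.03 to 66.4 ± 3.61. Gcnt1, a core 2 branching enzyme, went the other way, from 41.7 ± 2.30 to 3.54 ± 1.27 CPM. Of other mucins and trefoil factors, 3 of 4 transcripts found were tested. The membrane mucin Muc3 rose in each step (22.2, 75.5 and 207.8 CPM). Muc13, also a membrane mucin, was lowest in ENR (757, against 1351 in CV and 1649 in EN CPM), and its difference of 0.29 between EN and CV turned to -0.13 with spike-in scaling, -0.14 with library size alone and -0.03 on log2(TPM + 1).

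Markers of other cell types moved with the cultures as well, and their part in the goblet cell values was not tested. Of 10 enteroendocrine transcripts 9 rose in EN against CV, with summed levels of 59.7 to 64.6 CPM in CV, 494 to 534 in ENR and 1399 to 1941 in EN. All 5 tuft cell transcripts rose, from 2.16 to 4.46 CPM in CV to 100.2 to 135.0 in EN. All but 1 of the 15 enterocyte transcripts rose, from 10084 to 10556 CPM in CV to 72906 to 75026 in EN. Of 10 Paneth cell transcripts 3 rose and 6 fell, with sums of 7355 to 7535 CPM in CV and 8620 to 10088 in EN. The higher sum came from Reg3b, an antibacterial lectin, which rose from 870.2 ± 147.5 CPM (SD, n = 4) to 4529.8 ± 392.8. Without it the sums were 6405 to 6727 CPM in CV and 4648 to 5237 in EN. Of 4 stromal and blood transcripts tested, 2 rose and 0 fell in EN against CV (2 and 1 with spike-in scaling). This list held at most 29.4 CPM in any library, most of it Vim (23.3 CPM in EN), with Col1a2 at 0 or 1 count in each. Ptprc, with at most 1 count per library in CV, had 2.64 ± 0.673 CPM in EN. The counts of the enteroendocrine, tuft, enterocyte and Paneth cell lists were the same with spike-in scaling. Over all 9288 transcripts 35.2% rose in EN against CV after TMM, and 1473 rose with spike-in scaling. Enteroendocrine Gcg went from 0.474 to 161.2 CPM between CV and EN, Chgb from 7.64 to 746, Chga from 2.67 to 217.1 and Sst, with at most 1 count in CV, to 4.75. Tuft cell Dclk1 went from 0.383 to 35.8 CPM. Enterocyte Apoa1 went from 91.4 to 3683 CPM, Sis from 1235 to 27938 and Alpi from 156.6 to 635. Paneth cell Defa6 had 81.8 CPM in CV, 380.7 in ENR and 155.7 in EN, and Mmp7 had 137.1, 117.5 and 19.7.

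Outside the lists, 5 transcripts had a pattern most like that of the goblet genes. The measure was Pearson's r between log2 CPM over the 12 libraries and the mean centred profile of the 7 genes, among 9025 transcripts with a mean of at least 1 CPM. Ugt2a3 (r = 1.000), Treh (0.999), Ces1d (0.999), Lrig3 (0.998) and Dqx1 (0.998) led. Their levels rose in each step, as in Treh from 2.72 ± 0.329 to 56.5 ± 6.66 to 509 ± 23.0 CPM and Ugt2a3 from 26.9 ± 1.01 to 146.1 ± 3.59 to 575 ± 28.5. Such values are a description over 12 libraries of 3 cultures, in which any gene that rises in the same 2 steps scores high.

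Chromatin was read over 37 regions of the union of peaks that lie within 10 kb of the 8 gene bodies (mm9), of 94469 in all. Of these, 8 lie within 500 bp of a start site of their gene, at Atoh1, Agr2, Fcgbp, Tff3 and Spink4. None lies within 10 kb of Muc2, and none at the start sites of Clca1 and Zg16, the 3 genes whose RNA changed most. Scores exist only for regions of the union, so whether chromatin changed at these places cannot be read here. The 1 region at the Zg16 locus overlaps the start site of its neighbour Kif22. Values are scores, read counts per region that the authors normalised and rounded, compared with limma on log2(score + 1) at an adjusted p under 0.05. In mm9 the gene bodies lie at chr7:148876268-148940595 (Muc2), chr6:64679140-64681227 (Atoh1), chr12:36719494-36730674 (Agr2), chr7:28856255-28905881 (Fcgbp), chr3:144667501-144695740 (Clca1), chr17:31262251-31266591 (Tff3), chr7:134193670-134195491 (Zg16) and chr4:40867085-40878428 (Spink4). The regions over the starts of Agr2, Fcgbp and Tff3 overlap UTR exons, and those over the starts of Atoh1 and Spink4 overlap UTR and coding exons. Differences on this scale understate the change of low regions.

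At these regions ATAC was called in 17 of 37 for EN against CV (12 higher and 5 lower), which is 45.9%, against 35.2% of all regions (19.6% higher and 15.6% lower). For EN against ENR it was called in 12 (7 higher and 5 lower), against 24.0% (11.6% and 12.5%), and for ENR against CV in 7 (6 higher and 1 lower), against 15.8% (10.7% and 5.11%). The 1 lower region was that at Kif22 (-0.94, adjusted p = 0.0234), and the call was lost when any 1 of 4 libraries was left out (adjusted p of 0.051 to 0.0881). The changes were not of one direction within a gene, and promoters and other regions of Agr2 moved apart.

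**Figure D4:**
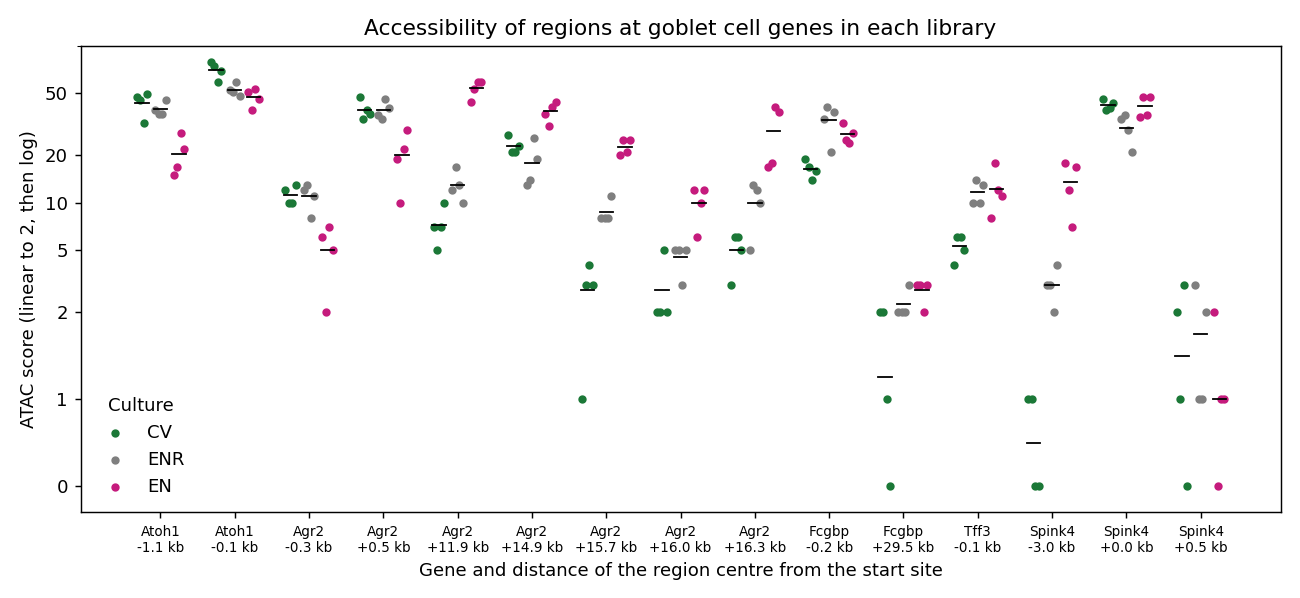
ATAC score of each library (linear to 2, then log) at the 8 promoter regions and at regions named in the text, by culture, with black lines for the mean of 4 libraries. At Agr2 the promoter regions are lower in EN and the 5 regions past the gene are higher.

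At the Agr2 start site (chr12:36719357-36720621) the ATAC scores were 47, 34, 39 and 37 in CV, 36, 34, 46 and 40 in ENR, and 19, 10, 22 and 29 in EN. All EN libraries lay below all others. The log2 difference was -1.02 ± 0.23 (SE) for EN against CV (adjusted p = 0.0022) and -1.01 ± 0.23 for EN against ENR (adjusted p = 0.00397). The next promoter region (chr12:36719061-36719281) gave -1.11 and -1.07. These values fell where the RNA of Agr2 rose by 2.68 (EN against CV).

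Past the end of Agr2, whose gene body runs from 36719494 to 36730674, 5 regions rose. At chr12:36731285-36731584, whose sequence is given above, scores were 7, 5, 7 and 10 in CV, 12, 17, 13 and 10 in ENR and 44, 53, 59 and 59 in EN. The log2 difference was 2.75 ± 0.22 for EN against CV (adjusted p = 3.87e-08) and 1.98 ± 0.22 for EN against ENR (adjusted p = 4.46e-06). The difference of 0.77 between ENR and CV was called, and was lost without CV replicate 2 or ENR replicate 2 (adjusted p of 0.0727 and 0.0800). At chr12:36735086-36735270 the scores rose in both steps, from 1, 3, 4 and 3 to 8, 8, 8 and 11 to 20, 25, 21 and 25. The other 3 regions, with centres 14884, 15974 and 16328 bp from the start site, rose by 0.71, 1.58 and 2.22 in EN against CV. No other start site of an annotated gene is closer to them than that of Agr2, which does not say which gene they serve.

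H3K27ac, a mark of active promoters and enhancers, was called at 2 of the 37 regions in EN against CV (5.41%, against 7.03% of all regions) and at 1 in EN against ENR (against 1.57%), all behind Agr2. At chr12:36735358-36735577 the scores were 1, 5 and 10 in CV, 11, 5 and 7 in ENR and 39, 39 and 29 in EN, a log2 difference of 2.84 ± 0.59 for EN against CV (adjusted p = 0.00187). At chr12:36735711-36735934 they were 1, 5 and 3, 7, 6 and 1, and 31, 18 and 25 (2.79 ± 0.63, adjusted p = 0.00434, or 0.0546 without EN replicate 2). Its difference from ENR (2.38) was lost when any of 7 single libraries was left out, with quantile normalization and without a trend in limma. The neighbour at chr12:36731285-36731584, where ATAC rose most, had H3K27ac scores of 1, 21 and 3 in CV and 4, 7 and 8 in EN, a difference of 0.34 with a 95% interval of -1.06 to 1.74. For ENR against CV limma called no region for H3K27ac (against 1.83% of all regions), with 1 at an unadjusted p under 0.05. Neither promoter region of Agr2 was called. H3K4me3 over the start site was 18, 26 and 23 in CV, 16, 26 and 24 in ENR and 13, 11 and 11 in EN, without overlap of EN and the others (-0.87 for EN against CV, adjusted p = 0.0734).

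**Figure D5:**
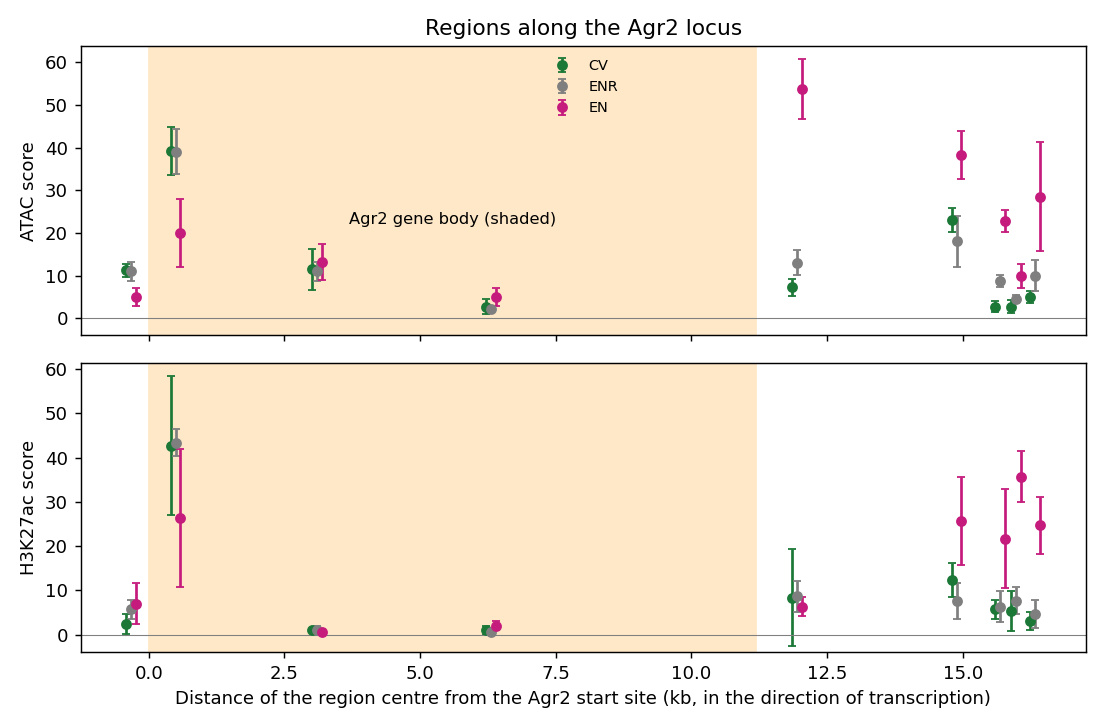
Mean ATAC score (top, n = 4 libraries per culture) and H3K27ac score (bottom, n = 3) of regions along the Agr2 locus, with SD, by distance of the region centre from the start site. The highest ATAC mean in EN is 53.8, 11940 bp from the start, where mean H3K27ac is 8.33 in CV, 8.67 in ENR and 6.33 in EN.

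At Atoh1, 2 of 4 regions were lower for ATAC in EN than in CV, while its RNA was higher. The region over the start site (chr6:64678297-64679815) had scores of 79, 74, 59 and 69 in CV, 52, 51, 59 and 48 in ENR and 51, 39, 53 and 46 in EN. Its log2 difference for EN against CV was -0.56 ± 0.14 (adjusted p = 0.00342), and for EN against ENR it was -0.15 (adjusted p = 0.449). The region centred at -1132 bp fell from 47, 45, 32 and 49 in CV and 39, 37, 37 and 45 in ENR to 15, 17, 28 and 22 in EN (-1.06 ± 0.19, adjusted p = 0.000276, and -0.95 against ENR). The regions centred at 772 bp and 7362 bp were not called, with differences of -0.10 and 0.34 (95% interval -0.090 to 0.77) for EN against CV. H3K4me3, a mark of active starts, had means of 48.7, 54.7 and 50.0 over the start in CV, ENR and EN, and its difference between EN and CV was 0.014 (95% interval -0.43 to 0.45).

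Promoters of Fcgbp and Tff3 were more open in ENR than in CV, and did not differ detectably between ENR and EN. For Fcgbp (chr7:28855827-28856310) the scores were 19, 17, 14 and 16 in CV, 34, 41, 21 and 38 in ENR and 32, 25, 24 and 28 in EN. The log2 differences were 0.95 ± 0.20 for ENR against CV (adjusted p = 0.00337) and -0.25 for EN against ENR (95% interval -0.68 to 0.17). For Tff3 they were 4, 6, 6 and 5, then 10, 14, 10 and 13, then 8, 18, 12 and 11, with differences of 1.03 ± 0.25 (adjusted p = 0.00949) and 0.018 (95% interval -0.51 to 0.55). The RNA of both genes rose most in the second step. The region centred at -1810 bp from the Tff3 start fell from 17, 16, 10 and 15 in ENR to 6, 4, 6 and 8 in EN (-1.15 ± 0.25, adjusted p = 0.00216).

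At Spink4 a region before the gene gained ATAC in each step. The region centred at -3027 bp from its start had scores of 1, 1, 0 and 0 in CV, 3, 3, 2 and 4 in ENR and 18, 12, 7 and 17 in EN, without overlap of the cultures. The log2 difference was 3.28 ± 0.36 for EN against CV (adjusted p = 1.68e-06) and 1.80 ± 0.36 for EN against ENR (adjusted p = 0.00132). Its size rests on scores near 0 in CV, and on log2(score + 5) it was 1.71, against 2.27 for the Agr2 region printed above. Over the Spink4 start (chr4:40866816-40867383) ATAC was high in all cultures (means 42.0, 30.0 and 41.2). H3K4me3 there had scores of 2, 2 and 3 in CV, 2, 6 and 4 in ENR and 15, 12 and 10 in EN, with a log2 difference of 2.00 ± 0.33 for EN against CV (adjusted p = 0.0141) and 1.48 ± 0.33 for EN against ENR (adjusted p = 0.041). Over all regions the median log2 difference of H3K4me3 was 0.09 for EN against CV and 0.44 for EN against ENR. The Spink4 start region was the only one of 28 called for H3K4me3 in each comparison, beside 4.9% and 6.18% of all regions. The first call was lost without CV replicate 2, CV replicate 3 or EN replicate 2 (adjusted p of 0.0503 to 0.0585) and the second when any 1 of 7 libraries was left out (0.0521 to 0.116). For ENR against CV no region was called (against 1.13%), and none had an unadjusted p under 0.05.

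At Clca1 4 regions were called for ATAC in some comparison, all with a mean score of at most 7.5. The region centred at 31612 bp was called lower in EN than in ENR. Its scores were 5 in ENR replicate 4 and 3 in the other ENR libraries, and 1 in EN replicate 3 and 0 in the other EN libraries. At the region centred at 30198 bp the EN against CV call was lost without CV replicate 3 or 4 or EN replicate 3 or 4. The differences were then 0.64 to 0.92 (adjusted p of 0.0595 to 0.121). Its ENR against CV call was lost when any 1 of 5 libraries was left out. At 9750 bp the EN against CV call was lost without CV replicate 4 or EN replicate 4 (0.97 to 1.09, adjusted p of 0.0542 to 0.0608). The region with the largest difference between EN and CV, in an intron 3032 bp past the start (chr3:144692607-144692808), had 3, 1, 2 and 0 in CV, 3, 5, 3 and 3 in ENR and 6, 5, 5 and 7 in EN (1.60 ± 0.38 for EN against CV, adjusted p = 0.00276). At Fcgbp the region centred at -6376 bp had 3, 2, 3 and 5, then 6, 2, 3 and 7, then 10, 11, 10 and 8 (1.38 ± 0.33, adjusted p = 0.00304).

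H3K27me3, the Polycomb mark, was called at none of the 37 regions in any comparison by limma, beside 0.528% of all regions for EN against CV, 0.0127% for EN against ENR and 0.74% for ENR against CV. At an unadjusted p under 0.05 there were 5, 5 and 4 regions. At the Atoh1 start the mean scores were 9.00, 12.3 and 14.3 in CV, ENR and EN, and the difference of 0.82 between EN and CV had a 95% interval of -0.56 to 2.19.

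Hnf4g reads come from 1 library per culture, so the values have no replicate check and no test. Among the goblet loci they were most numerous in ENR and EN at the Tff3 promoter region, with 3 reads in CV, 19 in ENR and 58 in EN, of 84340, 352600 and 1816497 reads in all regions. As RPM (reads-per-million) these are 35.6 (95% exact Poisson interval 7.34 to 104.0), 53.9 (32.4 to 84.1) and 31.9 (24.2 to 41.3), and the intervals, which cover counting error only, overlap. In CV the Atoh1 start region had 4 reads. In EN the Tff3 region had more reads than 91.6% of all regions. The region before Spink4 had 0, 4 and 21 reads, which are 11.3 RPM in ENR and 11.6 in EN. The most strongly opened Agr2 region had 0, 0 and 16 reads, or 8.81 RPM in EN. For 0 reads the same interval reaches 43.7 RPM in CV and 10.5 in ENR, so a rise of reads at these 2 regions was not detectable at this depth. The median of the 37 regions in EN was 4 reads, as over all regions.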

How the data were processed

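RNA values were deposited as estimates per transcript, namely expected counts, made by the authors with kallisto (0.43.0 in the submitters' processing notes) on RefSeq transcripts, beside TPM values and mRNA copy numbers, a score that the authors scaled to ERCC spike-ins. ATAC and histone mark values were deposited as a normalised score per region of the union of MACS 2.0 peaks (mm9, aligned with BWA, duplicates removed with Picard), rounded by the authors, with H3K27me3 regions extended to 1000 bp. Hnf4g values were deposited as raw counts per region. Region starts are printed as deposited and may count from 0.

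Expected counts were rounded and fitted with edgeR 4.0.16 (R 4.3.3, TMM, quasi-likelihood test) over 12 libraries, keeping 9288 transcripts detected (over 0 counts) in 4 or more libraries. Scores were fitted with limma 3.58.1 with a trend on log2(score + 1), for regions above 0 in at least 3 libraries. Both were tested on simulated data. DESeq2 1.42.0 was an alternative. Gene starts came from the GENCODE annotation of mm9, where Clca1 is listed as Clca3, and other steps used Python 3.11.15 with pandas 2.3.3, numpy 2.4.6 and scipy 1.17.1. Alternatives were other normalisations, filters, pseudocounts, thresholds, a replicate block and each library left out.

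The genes and gene lists were chosen with earlier results of these data known. Named beside the goblet genes were up to 4 called transcripts of each list with the largest change between EN and CV, Spdef, Gfi1, Reg4, Defa6, Lgr5 and Alpi, and the 5 transcripts most like the goblet genes. Dll1, Ang4, Pdia6, Col1a2 and Kif22 were chosen after their values were seen. Of 66 samples, 12 (10 histone mark libraries, and RNA of Hnf4gKO and WT organoids) were not analysed here. One sequence is not reported here.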

Additional observations from a re-analysis of the deposited data

Results flagged for a closer look

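Of 87 groups of 4 libraries examined (21 of RNA and 66 of ATAC), 12 had 1 library set apart from the other 3 by Dixon's test, and chance flags about 1 group in 20. In RNA, CV replicate 3 had 59.1 CPM of Agr2 (others 55.1 to 55.4), and CV replicate 4 had 637.5 CPM of Fcgbp (others 548.8 to 551.4).

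The other 10 were ATAC scores, where whole numbers give ties that raise the measure. At Agr2, ENR replicate 4 scored 11 (others 8) in the region centred 15684 bp from the start site, and 15974 bp from it CV replicate 3 scored 5 (others 2) and ENR replicate 3 scored 3 (others 5). At Fcgbp, 29509 bp from the start, ENR replicate 4 scored 3 (others 2) and EN replicate 3 scored 2 (others 3). At Clca1, 31612 bp from the start, CV replicate 4 scored 2 (others 1), ENR replicate 4 scored 5 (others 3) and EN replicate 3 scored 1 (others 0). Also at Clca1, ENR replicate 1 scored 5 (others 8) in the region 30198 bp from the start and ENR replicate 2 scored 5 (others 3) in that at 3032 bp.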

How the results depend on the processing

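All 7 goblet genes stayed called for EN against CV under every alternative and with each library left out. For EN against ENR 5 were called with spike-in scaling, without Agr2 (-0.063) and Atoh1 (-0.038). With library size alone, an alternative chosen after seeing the data, 5 were called as well, again without Agr2 (0.10) and Atoh1 (0.11). For ENR against CV 6 were called on copy numbers, without Tff3 (0.77). With each library left out, 7 were called in each comparison. Locus regions called for ATAC were 14 to 17 (EN against CV), 11 to 13 (EN against ENR) and 6 to 10 (ENR against CV) with each library left out. At the stricter adjusted p of 1e-05 they were 3, 1 and 0, beside 3940, 952 and 323 of all 94166 regions. With a mean score of 10 or more they were 9 of 16 tested for EN against CV, beside 17773 of 33820 over all such regions. For H3K27ac, 1 to 2 were called for EN against CV and 0 to 2 for EN against ENR with each library left out. At the stricter adjusted p of 0.001 both were 0, beside 1282 and 124 of all 94215 regions. With the replicate block both were 0 as well, but so were the calls over all 94215 regions, so that this 0 is not particular to these loci. EN against ENR was 0 with quantile normalization and without a trend (709 and 1 of all regions). It was 2 with log2(score + 5) and with a mean score of 10 or more (1849 of 94215 and 2152 of 26460 regions). For H3K4me3 the left-out ranges were 0 to 1 and 0 to 2. The stricter threshold gave 0 and 0, as it did over all 77827 regions. Quantile normalization gave 2 and 0, beside 3216 and 1769 of all regions. A mean score of 10 or more gave 0 for EN against ENR, beside 977 of 14779 regions. H3K27me3 calls stayed at 0. The cause was not tested where calls changed with a setting, apart from thresholds.

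Replicate numbers are shared between cultures by the labels, but in no data set was the correlation of same-numbered libraries above 0.1 in every pair (lowest r of -0.08 in RNA, 0.07 in ATAC, -0.05 in H3K27ac, -0.08 in H3K4me3, -0.04 in H3K27me3), so the numbers were not taken as pairs. In ATAC all 12 such correlations were above 0, with a mean of 0.17, against -0.056 for different numbers. With the replicate block, goblet genes called stayed at 7 in each comparison. ATAC regions called were 17, 14 and 9, beside 34713, 26019 and 16461 of all 94166 regions. Of 12 ATAC libraries, 9 correlated best with their own number.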

Other observations

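Other members of the Clca family did not share the pattern of Clca1, and they are named here after their values were seen. Clca3b had 41.6 ± 4.77 CPM (SD, n = 4) in CV, 209.9 ± 6.57 in ENR and 4.00 ± 0.394 in EN, and Clca3a2 had 5.34 ± 0.882, 33.2 ± 1.88 and 8.85 ± 0.929, so both were highest in ENR. Clca4b was alike in CV (670.5 ± 19.6) and ENR (673.3 ± 29.4) and higher in EN (2642 ± 42.5). Clca4a was lowest in ENR (12.2 ± 3.00, 4.59 ± 0.882 and 12.9 ± 2.52 CPM). These genes are close relatives, and their estimated counts can share reads.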
